A study of Mus musculus with 42 samples.

Results

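Fyb2, Ppp1r17 and Adam8 are 3 of the 37907 genes in a table of RNA-seq values from the mouse hypothalamus, and they were chosen by the RPKM values of these same libraries, for being higher after fasting in the paraventricular nucleus (PVN) and not in the other nuclei. The fasting differences of the 3 genes are therefore given as descriptions, with no test. All mice were adult wild-type C57/BL6 males, which were either fed ad libitum or deprived of food for 24 hours. The arcuate nucleus (ARC, 5 fed and 5 fasted libraries), the ventromedial hypothalamus (VMH, 6 and 6), the dorsomedial hypothalamus (DMH, 5 and 4) and the PVN (6 and 5) were cut from stained brain sections by laser capture, and the small RNA yields were amplified before sequencing. Nuclei were taken from shared brains, and the labels do not say which libraries came from one mouse.

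The 3 genes encode proteins with unrelated jobs. FYB2 belongs to a small family of adapter proteins that link receptors to the actin skeleton and integrins, described mainly in T cells. PPP1R17, also called G-substrate, is phosphorylated by the cGMP-dependent protein kinase and then inhibits protein phosphatases 1 and 2A, and it is best known from cerebellar Purkinje cells. ADAM8 is a membrane-anchored metalloprotease that sheds surface proteins, and it is best known from myeloid cells. The PVN holds the oxytocin, vasopressin, corticotropin-releasing hormone and thyrotropin-releasing hormone neurons that connect feeding and stress signals to the pituitary and the brainstem.

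The labels of the nuclei were checked against defining genes. Of the PVN genes, Sim1, Oxt, Avp and Crh were higher in each PVN library than in each library of the other nuclei. For example, Sim1, a transcription factor that PVN neurons need to form, was between 11.4 and 25.5 RPKM in the PVN and at most 2.21 RPKM elsewhere. Trh overlapped, with a lowest PVN value of 71.3 RPKM against 73.4 RPKM in the highest library elsewhere. Depth, estimated from the table, ran from 1.33 to 13.2 M reads per library (M, a factor of 1e6) and from 1.88 to 6.62 M reads in the PVN. Values are RPKM, in which reads are divided by gene length and by library depth. A gene without reads does not read 0 in this table, because the deposited values contain a small added count and an adjustment between 3 sets of libraries. For the 3 genes the whole reads behind each value were recovered, and are given as reads or as reads per M reads of the library (RPM).

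Fyb2 (ENSMUSG00000078612) lies on the plus strand of chromosome 4 at 104913456 to 105016863 on GRCm38, with 20 exon blocks. Ppp1r17 (ENSMUSG00000002930) lies on the plus strand of chromosome 6 at 56017497 to 56032689, with 5 exon blocks. Adam8 (ENSMUSG00000025473) lies on the minus strand of chromosome 7 at 139978932 to 139992562, with 21 exon blocks. All 3 are protein-coding and lie on different chromosomes. Exons of other genes covered 0% of the exon bases of Fyb2 and Ppp1r17 and 0.992% of those of Adam8. Of the 50-base stretches of Ppp1r17, 0.293% recur in transcripts of other genes.

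The letters before the start of Fyb2 and Adam8 are shown so that the motifs searched for can be seen in place. They are RefSeq sequences on GRCm38.p6, printed 5′ to 3′ on the strand of the gene and ending at the base before the annotated gene start, with matches to the searched motifs in capitals. Fyb2 spans chr4:104913311-104913455 on the plus strand and Adam8 spans chr7:139992563-139992812 on the minus strand.
Fyb2: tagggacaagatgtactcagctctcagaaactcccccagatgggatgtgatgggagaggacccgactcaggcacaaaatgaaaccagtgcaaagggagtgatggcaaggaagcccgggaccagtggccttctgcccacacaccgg
Adam8: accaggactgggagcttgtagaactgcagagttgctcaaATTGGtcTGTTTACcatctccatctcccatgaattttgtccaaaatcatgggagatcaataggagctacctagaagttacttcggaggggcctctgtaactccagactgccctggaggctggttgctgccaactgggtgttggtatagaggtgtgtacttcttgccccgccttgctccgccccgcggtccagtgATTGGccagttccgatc
Both strands were searched for the glucocorticoid response element and its shorter site AGAACA, the cAMP response element TGACGTCA and its shorter site TGACG, the E-box motif CACGTG, the forkhead motif GTAAACA, the box named by its letters CCAAT and the element with the letters TATAAA. The 145 bases of Fyb2 held none of them. The 250 bases of Adam8 held the forkhead motif once, 204 bases before the gene start, and CCAAT at 211 and 17 bases before it, each as the reverse complement. In windows of 250 bases before the start, 3.17% of 32851 RefSeq promoters held the forkhead motif and 33.8% held CCAAT. These matches describe the letters and not binding.

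Fyb2 was close to absent in the fed PVN and present in each fasted PVN library. Its 6 fed values were 0.471, 0.70, 0.422, 0.360, 0.346 and 0.889 RPKM, resting on 0, 1, 2, 1, 1 and 13 reads. Its 5 fasted values were 5.73, 8.47, 3.84, 5.0 and 2.22 RPKM, resting on 36, 116, 57, 105 and 46 reads. The groups did not overlap, and the lowest fasted value was 2.49 times the highest fed value. Over all genes tested, 0.220% had every fasted PVN library above every fed one, a share that is read here only as background since the contrast chose the gene. The fitted difference was 1.90 on the log2(RPKM + 1) scale (SE 0.23). In recovered reads pooled over libraries it was 15.0 against 0.653 RPM, a ratio of 23.0, because the count added to the deposited values and the pseudocount both compress differences of genes with few reads. This ratio rests on few fed reads, 13 of the 18 from PVN-Fed library 6, and without that library it was 64.3. The fed library without a Fyb2 read allows up to 0.686 RPM, for counting error only. In tissue of mixed cells, more RNA per cell and more cells of a type cannot be told apart.

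Ppp1r17 was expressed in both states of the PVN and was higher in the fasted mice. The fed values were 19.9, 28.0, 22.3, 13.7, 12.3 and 17.5 RPKM, on 78 to 199 reads. The fasted values were 41.0, 41.4, 51.7, 68.5 and 33.9 RPKM, on 181 to 806 reads. The groups did not overlap, although the lowest fasted value was only 1.21 times the highest fed value. The means were 47.3 ± 13.5 RPKM (SD, n = 5) and 18.9 ± 5.79 RPKM (n = 6), and the fitted difference was 1.28 on the log2(RPKM + 1) scale (SE 0.25). Pooled reads gave 87.3 against 29.9 RPM, a ratio of 2.92. With this many reads the ratio of RPKM means, 2.50, was near that of the reads, unlike for Fyb2.

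Adam8 was low in the fed PVN, and 1 fasted library stood far above the other 4. The fed values were 0.315, 0.616, 0.475, 0.472, 0.508 and 0.511 RPKM, on 6, 7, 3, 3, 4 and 4 reads. The fasted values were 6.99, 1.68, 2.25, 2.03 and 2.04 RPKM, on 158, 20, 32, 36 and 39 reads. No fasted value overlapped the fed ones, and the lowest fasted value was 2.72 times the highest fed value. The fitted difference was 1.30 on the log2(RPKM + 1) scale (SE 0.25). Pooled reads gave 11.9 against 0.979 RPM, a ratio of 12.1, and without PVN-Fast library 1 the ratio was 6.15. In RPM that library was at 53.6 and the other 4 fasted libraries were between 5.15 and 7.27. The fed libraries were between 0.643 and 3.73 RPM. The no-read value of Adam8 was 0.140 RPKM in the set of libraries that holds PVN-Fast library 1, against 0.294 and 0.320 RPKM in the others, so the deposited RPKM of that library is scaled down relative to its reads.

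**Figure D1:**
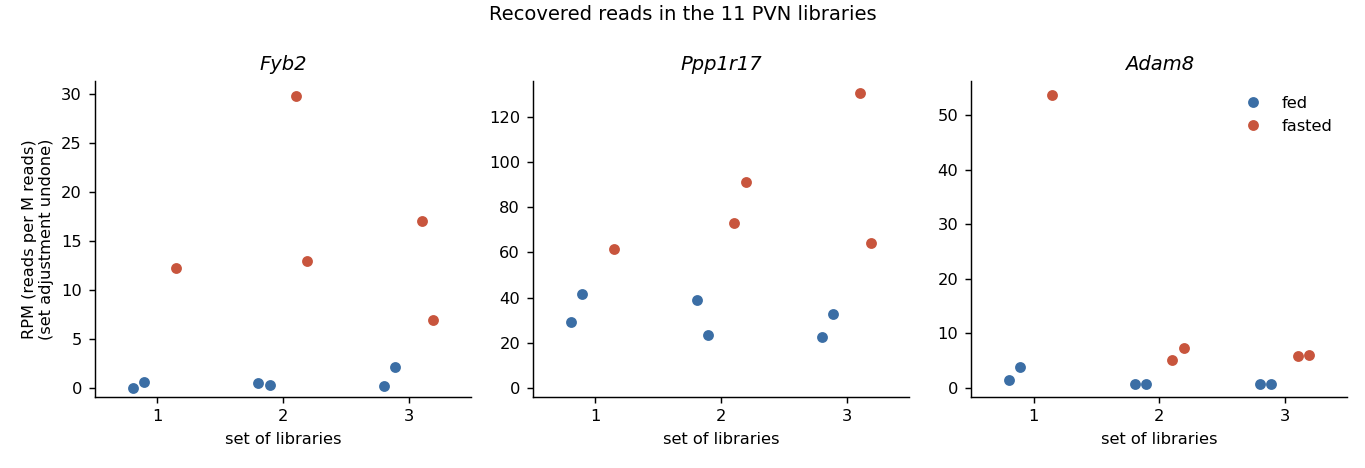
Recovered RPM (linear axis) of each gene in the 6 fed and 5 fasted PVN libraries, split by the set of libraries (1 to 3) they share an adjustment with, 1 point per library. In each set the fasted points lie above the fed points, and Adam8 in PVN-Fast library 1 stands at 53.6 RPM.

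The fasted PVN values of all 3 genes exceeded the fed ones within each of the 3 sets of libraries. For Fyb2 the log2(RPKM + 1) differences were 2.09, 2.28 and 1.46 in sets 1, 2 and 3. For Ppp1r17 they were 0.77, 1.35 and 1.65. For Adam8 they were 2.45, 1.0 and 1.01, the first from 1 fasted library. Set 1 held 1 fasted and 2 fed PVN libraries and the other sets held 2 of each, so these values have no test.

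No relation between the 3 genes from library to library within a group was detected. Deviations from the group mean were correlated over the 11 PVN libraries, a measure the choice of the genes did not use, for 3 pairs. Fyb2 and Ppp1r17 gave Pearson's r = 0.276 (permutation p = 0.444, adjusted 0.836) and Spearman's rho = 0.30 (permutation p = 0.380, adjusted 1). Fyb2 and Adam8 gave r = 0.134 (permutation p = 0.768, adjusted 0.836) and rho = 0.164 (p = 0.738, adjusted 1). Ppp1r17 and Adam8 gave r = -0.0921 (permutation p = 0.836, adjusted 0.836) and rho = 0 (p = 1). Without the 2 libraries farthest from the median of the first gene of the pair, r was 0.264, 0.491 and -0.0496. No pair passed, and with 11 libraries a moderate relation was not resolved. The library with the highest Fyb2 was PVN-Fast library 2, that with the highest Ppp1r17 was library 4, and that with the highest Adam8 was library 1.

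Outside the PVN the 3 genes differed from each other. Fyb2 in the ARC was 0.685, 0.649, 0.869, 0.472 and 0.302 RPKM in fed and 0.758, 1.09, 1.38, 1.92 and 0.868 RPKM in fasted libraries. These groups overlapped by a narrow margin, with 5 of 5 fasted libraries above the fed mean and 3 of 5 above the highest fed library. The fasted ARC held 79 Fyb2 reads against 20 in the fed ARC, a ratio of 3.33 in RPM, so a higher fasted value was not seen in the PVN alone. In the VMH the lowest, median and highest Fyb2 values were 0.299, 1.14 and 2.58 RPKM fed and 0.694, 1.12 and 1.92 RPKM fasted. In the DMH the values were 1.07, 0.360, 0.696, 1.83 and 0.489 RPKM fed and 0.547, 0.917, 0.532 and 0.697 RPKM fasted. Fed and fasted values overlapped in both, with fitted differences of 0.03 (SE 0.22) and -0.13 (SE 0.25) against 0.45 (SE 0.24) in the ARC.

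Ppp1r17 had a lower fasted mean in the ARC. The fed ARC values were 25.5, 8.24, 14.7, 12.8 and 15.2 RPKM and the fasted values 9.76, 10.8, 3.79, 10.6 and 6.68 RPKM. The groups overlapped through the fed library at 8.24, and 0 of 5 fasted libraries lay above the fed mean. The fitted difference was -0.80 on the log2 scale (SE 0.26), opposite in sign to that in the PVN. In the DMH the difference was 0.01 (SE 0.28), with means of 49.6 ± 8.10 RPKM (SD, n = 5) fed and 49.7 ± 5.75 RPKM (n = 4) fasted. In the VMH it was -0.02 (SE 0.24) at levels between 3.44 and 11.2 RPKM.

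Adam8 was lower, not higher, in the fasted groups of the ARC and DMH by its means. Its fed ARC values were 0.490, 1.27, 0.916, 2.60 and 2.52 RPKM and its fasted ARC values 0.538, 0.785, 0.294, 0.616 and 1.05 RPKM, which overlapped. The fitted differences were -0.56 (SE 0.27) for ARC, -0.10 (SE 0.24) for VMH and -0.30 (SE 0.28) for DMH. In the VMH the lowest, median and highest values were 0.320, 0.775 and 2.86 RPKM fed and 0.476, 0.80 and 1.73 RPKM fasted. Pooled reads gave ratios of fasted to fed of 0.368 for ARC, 0.559 for VMH and 0.445 for DMH. The VMH ratio was 0.879 without VMH-Fed library 2, which held 55 of the 118 fed VMH reads. In the DMH 0 of 4 fasted libraries lay above the fed mean, at values of 0.983, 0.63, 0.320 and 0.849 RPKM against 1.21, 0.886, 1.15, 0.898 and 1.21 RPKM fed. All counts here are small, at 0 to 55 reads in these libraries.

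**Figure D2:**
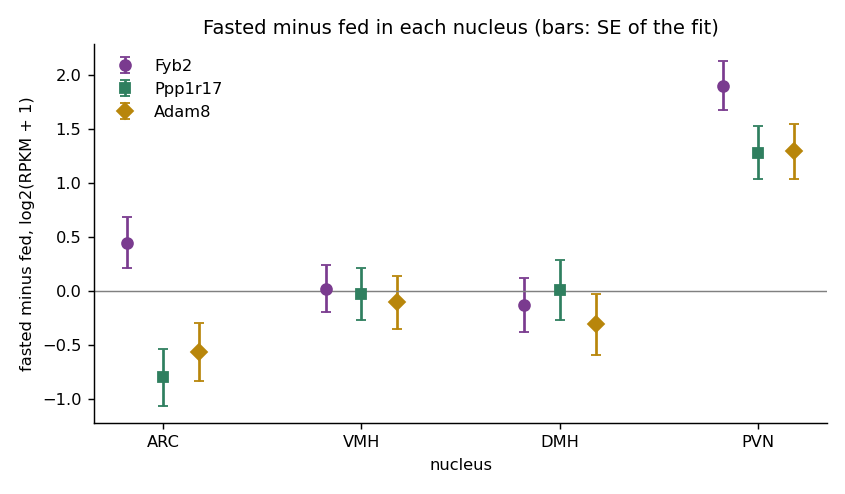
Fasted minus fed on the log2(RPKM + 1) scale in each nucleus for the 3 genes, with bars of 1 SE from the fit over 42 libraries. The PVN values are 1.90, 1.28 and 1.30, and in the ARC Ppp1r17 (-0.80) and Adam8 (-0.56) lie below 0 while Fyb2 (0.45) lies above it.

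The 8 groups were ordered by mean level. For Fyb2 the fasted PVN was highest at 5.05 ± 2.33 RPKM (SD, n = 5), and the next groups were the fed VMH at 1.28 ± 0.852, the fasted VMH at 1.23 ± 0.498 and the fasted ARC at 1.20 ± 0.467. The lowest was the fed PVN at 0.531 ± 0.217. Only the fasted PVN stood apart by its mean, and its lowest library (2.22 RPKM) was below the highest fed VMH library (2.58 RPKM). The other 7 groups overlapped with their neighbours in the order.

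For Ppp1r17 the DMH was highest in both states, and the fasted PVN mean of 47.3 RPKM fell within the range of the DMH libraries, 41.2 to 58.8 RPKM. The fed PVN came next, followed by the fed ARC at 15.3 ± 6.34, which overlapped it, the fasted ARC at 8.33 ± 3.03, and the VMH at 6.07 ± 2.78 fasted and 5.89 ± 1.36 fed. Thus the fed PVN had 0.382 times the mean of the fed DMH, and the fasted PVN 0.951 times that of the fasted DMH.

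For Adam8 the fasted PVN was highest at 3.0 ± 2.24 RPKM and at 2.0 ± 0.236 RPKM (n = 4) without PVN-Fast library 1. The fed ARC followed at 1.56 ± 0.956, the fed VMH at 1.30 ± 1.06, the fed DMH at 1.07 ± 0.167 and the fasted VMH at 1.03 ± 0.553. The fasted DMH was at 0.694 ± 0.290, the fasted ARC at 0.657 ± 0.283 and the fed PVN, again the lowest, at 0.483 ± 0.0976. The highest fed VMH and ARC libraries, at 2.86 and 2.60 RPKM, lay above 4 of the 5 fasted PVN libraries, so Adam8 did not separate the fasted PVN from all other libraries.

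**Figure D3:**
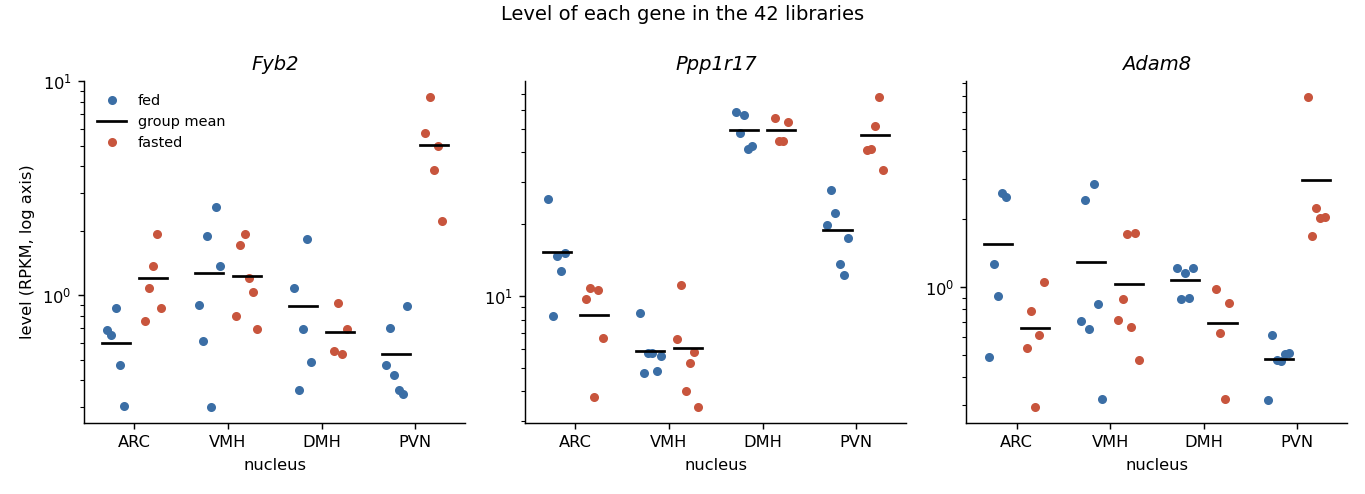
RPKM (log axis) of each gene in the 42 libraries, fed and fasted side by side in each nucleus, with 1 point per library and a line at the group mean. Fyb2 and Adam8 sit near 1 RPKM or below it in most libraries outside the fasted PVN, whereas Ppp1r17 is at 41.2 to 58.8 RPKM in each DMH library.

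The levels of the nuclei outside the PVN, which did not enter the choice in this form, were tested over both states with limma and adjusted over 33579 genes. Ppp1r17 was higher in the DMH than in the ARC by 2.11 log2 units (SE 0.19, adjusted p = 3.95e-10 by limma) and higher than in the VMH by 2.90 (SE 0.18, adjusted p = 2.01e-14). It was higher in the ARC than in the VMH by 0.79 (SE 0.18, adjusted p = 0.00133). Such a difference was called for 5.75%, 7.77% and 13.4% of genes. Fyb2 passed none of the 3 comparisons, with differences of -0.09 (95% interval -0.44 to 0.26) for DMH minus ARC, -0.31 (-0.65 to 0.02) for DMH minus VMH and -0.23 (-0.55 to 0.10) for ARC minus VMH. Adam8 passed none either, at -0.10 (-0.49 to 0.30), -0.14 (-0.51 to 0.24) and -0.04 (-0.41 to 0.33).

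The PVN change minus the mean change of the ARC, VMH and DMH was ranked over the 33579 genes tested. Fyb2 was first at 1.79 on the log2 scale, with Adam8 at rank 2 with 1.62 and Ppp1r17 at rank 4 with 1.55. The 3 genes were chosen for this pattern, so their high ranks follow from the choice and are a description. Rank 3 was Gpd1, the cytosolic glycerol-3-phosphate dehydrogenase, at 1.61, with a PVN change of 1.72 that did not pass the threshold. The other genes among the first 10 were Gm15982, Gm12274, Klhl34, Pglyrp1, Gm12788 and Tmem202, none of which passed in the PVN. In the PVN 24 genes (0.0715%) passed an adjusted p of 0.1 in either direction and 18 (0.0536%) were higher in fasted mice, and the 3 genes are among these by their choice. The next of the 24 in this order was Rgs2, a regulator of G protein signalling, at 0.99. By contrast Cdkn1a and Hif3a, whose fasted means were higher in all 4 nuclei, had PVN changes of 1.81 and 1.41 but differences from the other nuclei of only 0.20 and 0.29.

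**Figure D4:**
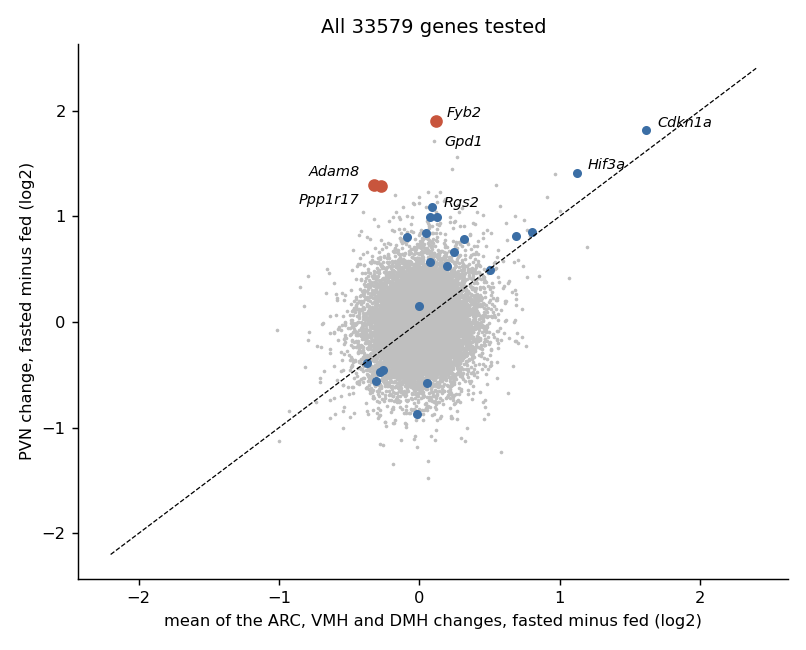
PVN change against the mean of the changes in the ARC, VMH and DMH (fasted minus fed, log2 scale) for 33579 genes, with the 24 genes past the threshold in the PVN in blue or red and the dashed line marking equal change. Fyb2, Adam8 and Ppp1r17 (red) lie well above the line, at 1.90, 1.30 and 1.28, and Cdkn1a and Hif3a lie near it.

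The genes whose level over all 42 libraries was most like each of the 3 were taken among 23283 genes with a mean of at least 2 RPKM. For Ppp1r17 these included Cck (r = 0.821, rho = 0.781), which encodes cholecystokinin, Pter (r = 0.801), Lin7a (r = 0.792) and Trh (r = 0.788). The PVN changes of these 4 genes lay between -0.46 and 0.19. For Fyb2 the most alike were Gpd1 (r = 0.693, rho = 0.565), 5330429C05Rik, Gm11490, Gm24403 and Dapl1, with r of 0.603 to 0.662 and rho of 0.183 to 0.406 for the last 4. For Adam8 they were Gm23068, Snord32a, Mir770, ENSMUSG00000088137 and Mir135a-2, with r between 0.626 and 0.652, but between 0.322 and 0.408 without PVN-Fast library 1. Libraries share nuclei, sets and depth, and these correlations are descriptions.

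No gene from lists of partners and relatives of the 3 proteins passed the test. From 6 lists of 61 genes, 57 were tested, and 0 rose and 0 fell in the PVN by limma at an adjusted p of 0.1. The entries for Pde2a and for Kiss1, an ARC marker, held the same values, so the entry is taken as neither gene. Its changes were 0.32 in the PVN and 0.97 in the DMH, and the counts and medians of the lists include it. At an unadjusted p of 0.05, 0 were higher and 2 lower in the PVN, where 5.53% of all genes passed in either direction. In the ARC, VMH and DMH, too, 0 passed the adjusted threshold, which 0.0566%, 0.131% and 0.0238% of all genes did. At the unadjusted level, 1 was higher and 5 lower in fasted ARC, 3 higher and 5 lower in VMH, and 2 higher and 0 lower in DMH, where 7.50%, 7.31% and 6.48% of all genes passed.

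Of 15 tested genes around the FYB adapters, the median PVN change was -0.03, against 0.00 over all genes. Fyb, the better known relative of Fyb2, was at 1.02 ± 0.614 RPKM fasted (SD, n = 5) and 1.05 ± 0.528 RPKM fed (n = 6) in the PVN. Skap2, an adapter that FYB proteins bind, was at 10.2 ± 4.01 and 10.8 ± 4.13 RPKM, and Fyn, a Src-family kinase acting upstream of them, at 17.0 ± 1.35 and 17.6 ± 5.13 RPKM. Evl, an actin regulator, was at 8.61 ± 1.87 fasted and 11.7 ± 1.36 RPKM fed, a change of -0.41 (SE 0.16) that did not pass. The T cell genes Zap70, Lck and Lat had group means of 0.782 to 1.71 RPKM in both states, of which a part is the added count. Lat had 0 reads in 2 fasted and 3 fed PVN libraries, Zap70 in 2 fasted and 1 fed, and Lck in none.

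Of 11 tested genes of nitric oxide and cGMP signalling, the route that leads to G-substrate, the median PVN change was -0.17. The 11 include the entry for Pde2a, at 0.32, which is not taken as that gene. Nos1, the neuronal nitric oxide synthase, was at 19.6 ± 1.73 fasted and 19.6 ± 1.23 RPKM fed. The 2 cGMP-dependent kinases that phosphorylate G-substrate, Prkg1 and Prkg2, were at 5.82 ± 3.5 and 4.03 ± 1.67 RPKM fasted against 6.40 ± 2.52 and 6.48 ± 3.47 RPKM fed, and neither passed. Gucy1a2, a subunit of the nitric oxide receptor, differed by -0.42 (SE 0.18) and did not pass. Of 14 phosphatase genes and inhibitors the median was -0.03. The catalytic subunits Ppp1ca, Ppp1cb and Ppp2ca were between 27.0 and 36.8 RPKM in both states.

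Of 7 tested ADAM proteases the median PVN change was 0.01. Adam10 and Adam17, the main sheddases of many cells, were at 10.9 ± 2.33 and 3.86 ± 0.972 RPKM fasted against 12.2 ± 1.35 and 3.04 ± 1.17 RPKM fed. The protease-dead members Adam11, Adam22 and Adam23 had a median of 0.20, and the inhibitors and trafficking partners of ADAM proteases a median of 0.16. Timp3, an inhibitor of ADAM proteases, was at 19.6 ± 4.33 fasted and 19.1 ± 2.92 RPKM fed.

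**Figure D5:**
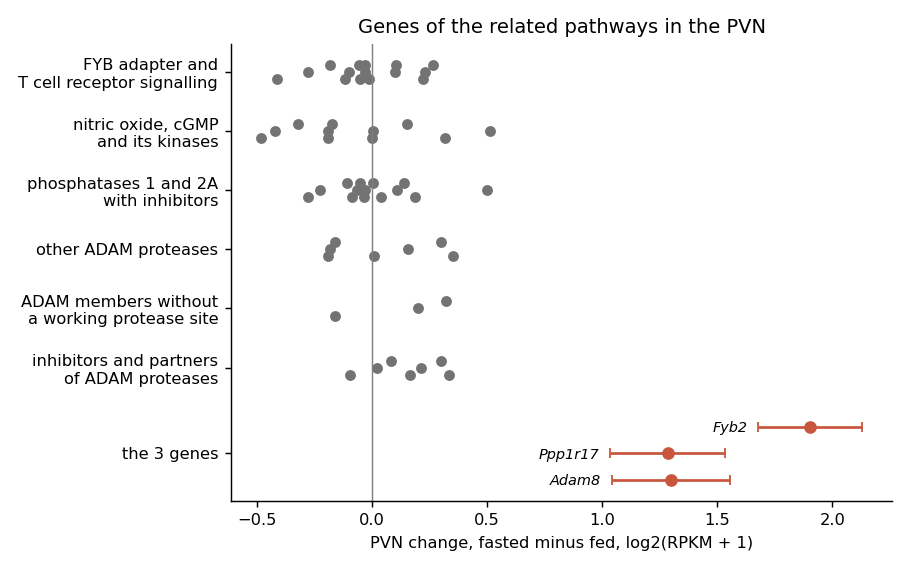
PVN change (fasted minus fed, log2 of RPKM + 1) of the 57 tested genes of 6 related lists, 1 grey point per gene, with the 3 genes in red and bars of 1 SE. The 57 include the entry for Pde2a, at 0.32, which is not taken as that gene. The grey points lie between -0.48 and 0.51 and the 3 genes at 1.28 to 1.90.

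No tested neighbour of the 3 genes passed in the PVN (limma adjusted p = 1 for each of the 4 tested). Prkaa2, a catalytic subunit of AMP-activated kinase whose gene is 13011 bases from Fyb2, was at 11.1 ± 0.725 fasted (SD, n = 5) and 9.41 ± 1.44 RPKM fed (n = 6). C8a and Itprid1, the neighbours on the other sides of Fyb2 and Ppp1r17, were too low to be tested. Pde1c, beside Ppp1r17, was at 3.01 ± 0.691 and 3.57 ± 1.45 RPKM. The gene 6430531B16Rik, on the same strand as Adam8 and 177 bases from its end, was at 0.677 ± 0.0976 fasted and 0.657 ± 0.229 RPKM fed, with 0.684 RPKM in PVN-Fast library 1. Tubgcp2, on the other side, was at 8.66 ± 2.77 and 8.59 ± 2.25 RPKM.

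Genes of the other cell types that capture can include are given beside these values because FYB2 and ADAM8 are known from immune cells. The summed level of 6 microglia genes was 32.9 to 37.8 RPKM in the fed PVN and 24.7 to 44.3 RPKM in the fasted PVN. The highest value, 44.3, was in PVN-Fast library 1, which also had the highest fasted astrocyte and blood sums given below. The sum over 6 T cell genes was 18.3 to 23.9 RPKM fed and 12.3 to 25.4 RPKM fasted, with Cd3g at 0 reads in each PVN library. The sum over 4 neutrophil genes was 9.81 to 11.1 RPKM fed and 9.81 to 10.6 RPKM fasted, with Ly6g at 0 reads in each, and it was 9.94 RPKM in PVN-Fast library 1. Since the added count holds genes without reads above 0, part of these sums is that count. The neutrophil sum is nearly all added count. S100a8 and S100a9 each had 0 reads in 5 fasted and 5 fed PVN libraries, and Camp in 4 fasted and 6 fed. Most of the T cell sum is Trac, at 14.4 RPKM fasted and 16.3 RPKM fed, and Cd3e had 0 reads in 4 fasted and 6 fed PVN libraries. Endothelial (26.3 to 34.5 fed, 20.4 to 39.3 RPKM fasted), border macrophage (3.63 to 9.10, 3.11 to 5.47) and blood genes (15.2 to 71.2, 23.9 to 44.4) overlapped between states. Genes of the thalamus above the PVN summed to 78.5 to 89.3 RPKM fed and 67.6 to 97.6 RPKM fasted. Astrocyte genes summed to 88.3 to 134 RPKM fed and 86.9 to 110 RPKM fasted, oligodendrocyte genes to 61.9 to 100 and 59.7 to 90.9 RPKM, ependymal and tanycyte genes to 3.32 to 6.46 and 2.75 to 4.11 RPKM, and choroid plexus genes to 2.87 to 11.8 and 3.96 to 7.04 RPKM. In the PVN 0 genes of these lists passed the adjusted threshold by limma, which 0.0715% of all genes did. At an unadjusted p of 0.05, which 5.53% of all genes passed in either direction, there was 1 higher thalamus gene, 1 higher neutrophil gene and 1 lower astrocyte gene. They are named here after their values were seen. These were Prkcd, a kinase (4.07 ± 1.04 RPKM fasted, 1.31 ± 0.701 fed), Camp (1.97 ± 0.320 and 1.82 ± 0.0203) and the water channel gene Aqp4 (10.1 ± 2.21 and 17.0 ± 3.6). Camp had 0 reads in 4 of the 5 fasted and in all 6 fed PVN libraries. The other thalamus genes, Tcf7l2, Calb2, Ntng1 and Necab1, had PVN changes of -0.23, -0.09, -0.14 and -0.16, opposite in sign to that of Prkcd. The part of these cells in the values of Fyb2 and Adam8 was not tested.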

How the data were processed

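RNA-seq was done on 42 libraries of 4 laser-captured nuclei, grouped by nucleus and nutritional state per the labels. The RPKM values are as deposited by the authors, who per the methods mapped single-end reads to GRCm38 with TopHat (TopHat2 2.0.11, CASAVA 1.7 and Cufflinks 2.2.1 in the submitters' processing notes), worked with edgeR and limma and removed outlier samples. The table held 0 values equal to 0. An added count of 5 reads in the mean library and an adjustment between 3 sets of 10, 16 and 16 libraries, inferred from shared no-read values, were read from the table. The methods describe 3 batches of capture, and the labels name none. Within 0.1 of a read, 98.0% to 99.1% of low values of a library were whole reads above the no-read value, and the reads of the 3 genes were recovered on that basis. Depth (mean 4.57 M reads, M being 1e6) is estimated from exon lengths. The recovery and the fit were tested on simulated data.

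Genes with RPKM of at least 1 in at least 4 libraries were kept (33579 genes, of which 4747 had no read in any library). All 3 genes passed, also outside the fasted PVN, where Fyb2 reached 1 RPKM in 12 and Adam8 in 11 of 37 libraries. Limma 3.58.1 (R 4.3.3) was fitted to log2(RPKM + 1) with a mean for each of the 8 groups over 42 libraries and an intensity trend, in place of the authors' count model, because the values are not counts. P-values are two-sided and adjusted by Benjamini-Hochberg over all genes, with a threshold of 0.1. Libraries were treated as independent although nuclei share mice. Permutation tests used 100000 draws within groups, so p-values measure the spread between libraries. Intervals and limits from a count of 0 (3 reads) cover counting error only. The genes, the lists and the tests were chosen with earlier results of these data known. The genes named were the 3 members, the 10 with the largest PVN change minus the mean of the other nuclei, the 5 most alike to each member (1 of them is not reported here), and list genes past the threshold. Other list genes and neighbours are named as examples chosen after their values were seen. The lists covered partners of each protein, nucleus markers and markers of other cell types. Symbols for 35965 IDs came from GENCODE M21 on GRCm38, and promoters from RefSeq for 2 of the 3 genes. The alternatives were other pseudocounts, no filter, libraries of the nuclei compared only, array weights, a replicate block, leaving out each library, fed groups only, and values within sets. Pooled reads without a pseudocount were added after the data were seen.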

Additional observations from a re-analysis of the deposited data

Results flagged for a closer look

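Each of the 3 genes was checked in each of the 8 groups for a library whose gap to the nearest other, as a share of the group's range, passed Dixon's critical value. Of these 24 groups 2 were flagged, and chance flags about 1 in 20. Adam8 in PVN-Fast library 1 was at 6.99 RPKM while the other 4 fasted PVN libraries were at 1.68 to 2.25 RPKM. That library had the highest microglia (44.3 RPKM), astrocyte (110 RPKM) and blood (44.4 RPKM) sums of the fasted PVN. It had the lowest oligodendrocyte (59.7 RPKM), border macrophage (3.11 RPKM) and ependymal and tanycyte (2.75 RPKM) sums. The microglia genes differed there, with Tmem119 at 9.02 RPKM against a fasted PVN mean of 3.96 and Cx3cr1 at 5.45 against 5.75. It also had the lowest depth of the fasted PVN libraries (2.95 M reads). The part of these cells and of depth in the Adam8 value was not tested. Ppp1r17 in VMH-Fed library 1 was at 8.49 RPKM while the other 5 fed VMH libraries were at 4.76 to 5.82 RPKM.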

How the results depend on the processing

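The PVN differences of the 3 genes kept their sign under each alternative run. With pseudocounts of 0.1 and 2 that of Fyb2 was 2.96 and 1.42, and with 0.1 that of Adam8 was 2.21. Within set 3 Fyb2 was at 1.46, within set 1 Ppp1r17 at 0.77 and Adam8 at 2.45. On pooled reads without a pseudocount, an alternative chosen after seeing the data, Fyb2 was at 4.52 and Adam8 at 3.6. The pooled ratio of Fyb2 moved from 23.0 to 64.3 without PVN-Fed library 6, and that of Adam8 from 12.1 to 6.15 without PVN-Fast library 1. Without 1 library each, Fyb2 ranged from 1.72 to 2.11, Ppp1r17 from 1.14 to 1.40 and Adam8 from 1.01, without PVN-Fast library 1, to 1.41. Of the level comparisons, those of Ppp1r17 stayed past the threshold in each alternative, and ranged without 1 library from 0.69 to 0.90 (ARC minus VMH), 2.0 to 2.21 (DMH minus ARC) and 2.84 to 2.99 (DMH minus VMH). Those of Fyb2 and Adam8 passed in no alternative. Without 1 library Fyb2 ranged from -0.30 to -0.15, -0.17 to -0.03 and -0.39 to -0.24, and Adam8 from -0.11 to 0.047, -0.18 to -0.02 and -0.20 to -0.05. In fed groups only, Fyb2 DMH minus ARC was 0.20 and Adam8 ARC minus VMH 0.19, and the latter was 0.059 with array weights, each opposite in sign to its main value. The correlation of Fyb2 and Adam8 was -0.223 over 42 libraries.

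The counts of genes past the threshold depended on the fit, and the cause was not tested. With only the libraries of a nucleus they were 0 (ARC), 1 (VMH), 0 (DMH) and 3 (PVN), and with array weights 40, 16, 56 and 141, against 19, 44, 8 and 24. The ARC count was 8 with a pseudocount of 0.1. Without 1 library they ranged from 6 to 31, 16 to 64, 6 to 89 and 11 to 48. Replicate numbers recur between groups. Fed and fasted libraries of a nucleus with the same number did not deviate together (correlations of -0.122 to 0.0544, with 2 fed libraries closest to their own number). Fed and fasted libraries come from different mice, so this comparison cannot show whether the numbers pair nuclei of the same brain, which was not tested. With the number as a replicate block the counts were 13, 17, 6 and 24, the PVN differences were 1.91, 1.24 and 1.23, and no level comparison changed its side of the threshold. Depth limits Fyb2 and Adam8 most, since their fed PVN values rest on 0 to 13 reads.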
